A study of Homo sapiens with 2 samples.

Results

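Intermediate filament genes, the plakin genes that tie filaments to other structures and the lamin genes of the nuclear lamina were followed in PC-3 cells with and without knockdown of SHISA2. The 10 genes were KRT7, KRT8, KRT18, KRT19, VIM, PLEC, DST, LMNA, LMNB1 and LMNB2. Every probe set annotated to exactly 1 of them was taken, which gave 30 of the 54675 probe sets on the array, and no probe set of these genes was shared with another annotated gene. PC-3 is a human prostate cancer cell line derived from a bone metastasis. The siSHISA2_PC-3 array carried RNA from cells transfected with a vector expressing a short hairpin RNA against SHISA2, and the siCONTROL_PC-3 array carried RNA from cells with the control vector. There was 1 array for each vector, so no value has a replicate, no difference was tested, and having so few arrays limits how precise any ratio can be. The sources used here do not state whether the cells were a pool or a clone, or the time after transfection. In such bulk RNA, fewer cells of a kind and less RNA per cell cannot be told apart.

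Intermediate filaments are flexible cytoskeletal cables built from coiled-coil proteins. In simple epithelia a type II keratin such as KRT8 or KRT7 pairs with a type I keratin such as KRT18 or KRT19, whereas vimentin, encoded by VIM, is the type III protein of mesenchymal cells and of many invasive carcinoma lines. Plectin (PLEC) and dystonin (DST) are giant plakins that link filaments to hemidesmosomes, actin and microtubules, and the lamins form the filament mesh under the inner nuclear membrane, which A-type lamins share with the farnesylated B-type lamins.

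Values are MAS5 signals, which are probe-set intensities on a linear scale with each array scaled to the same trimmed mean. A signal was treated as measured where at least 1 array read above a floor of 47.9, the median of all non-control signals, and as bright where both arrays read above 387.3, their 75th percentile. Signals of different probe sets differ with probe affinity and were not ranked against each other. All log2 ratios are siSHISA2_PC-3 over siCONTROL_PC-3, with signals under the floor raised to it. The technical spread of 1 bright probe set, taken from how far 2 bright probe sets of a gene disagree in log2 ratio (their SD of 0.212 over the square root of 2), was 0.150 over 2827 genes. It serves below as the yardstick and leaves out variation between cultures and arrays. Pairs of all probe-set kinds were used, and overlap of their probes, which could make the spread too small, was not checked. SHISA2 itself read 1506 in the siSHISA2_PC-3 array and 3536 in the siCONTROL_PC-3 array, so 42.6% of the control signal was left.

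Of the 30 probe sets, 20 were measured and 12 were bright, and the measured ones covered 9 of the 10 genes. KRT19 was the gene without a measured probe set. The brightest measured probe set stood for its gene. On that basis 7 of 9 genes read lower in the siSHISA2_PC-3 array, where 47.8% of the 12931 measured genes did so, and the median log2 ratio was -0.16 over these 9 genes against 0.01 over all measured genes. Over the 8 genes whose representative was bright, 6 read lower, against 49.8% of 7650 bright genes, with medians of -0.15 and 0.00. Only PLEC was at least 2-fold apart, a size reached by 1.48% of all measured genes, bright and dim together. PLEC was dim, and dim signals reached that size more often. Of 12695 dimmer measured probe sets with 1 gene, 160 were at least 2-fold lower and 256 at least 2-fold higher. Of 11812 bright ones, 5 and 8 were. Counted by probe set, 11 of 20 measured ones read lower, close to the 47.9% of all measured probe sets with 1 gene. Probe sets of the same gene are not separate members, so the counts by brightness that follow describe probe sets only. LMNA alone gave 4 of the bright ones, and DST gave 6 measured ones, of which 2 were bright. Of the 12 bright ones 9 read lower, where 50.4% of all bright probe sets did, and of the 8 dimmer ones 2 read lower, against 45.5% of all dimmer measured probe sets. The dimmer ones had a median log2 ratio of 0.29, against 0.04 over all dimmer measured probe sets, and 3 of these dimmer member ratios were bounds. The plot of signals in both arrays shows how far most bright probe sets of these genes overlap.

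**Figure D1:**
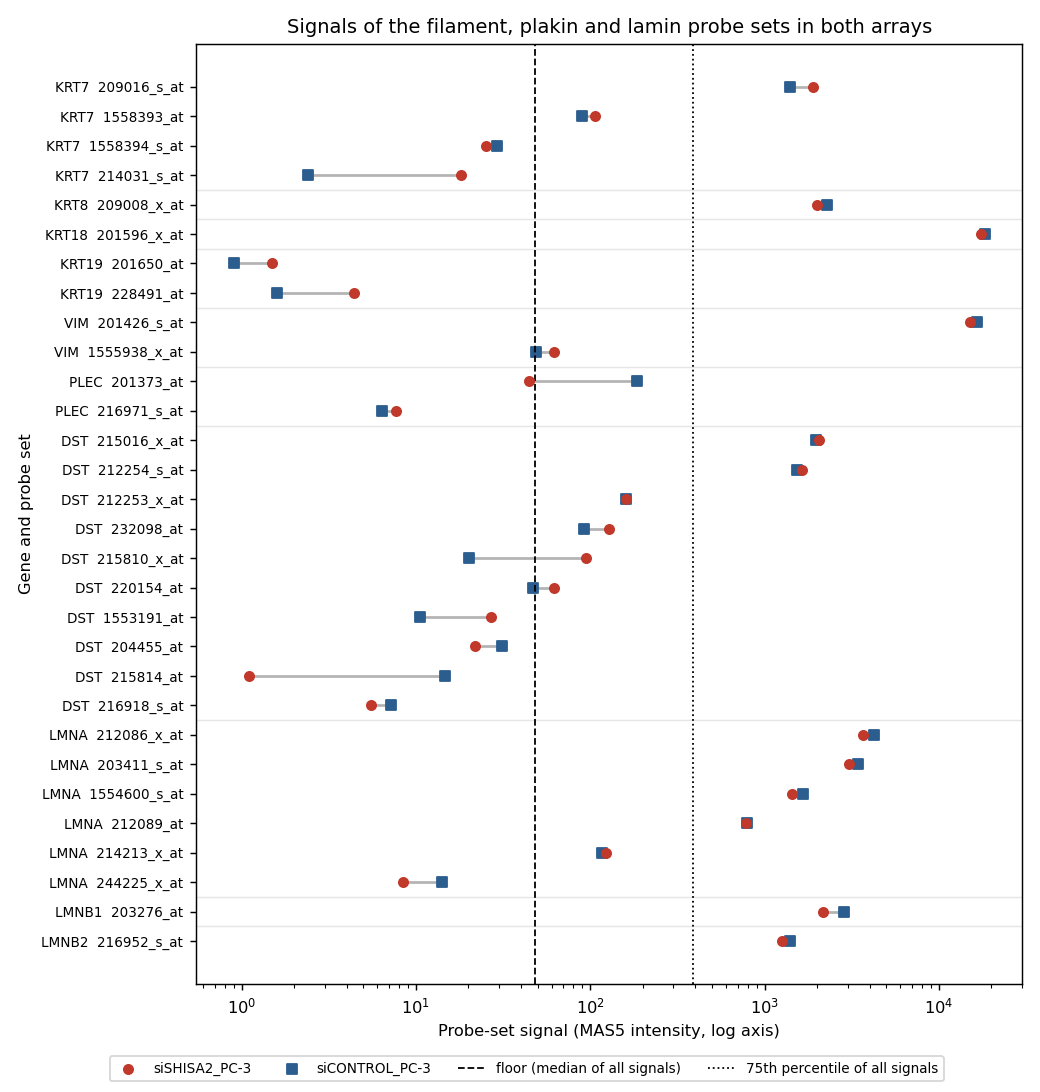
Signals of all 30 probe sets of the 10 genes on a log axis, 1 row per probe set, with circles for siSHISA2_PC-3 and squares for siCONTROL_PC-3 (1 array each, no error bars) and lines at the floor of 47.9 and the 75th percentile of 387.3. The bright probe sets sit with their circle and square close together, both KRT19 probe sets lie far under the floor, and the PLEC probe set 201373_at crosses it.

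The type II keratins KRT7 and KRT8 went opposite ways. KRT7, found in glandular and transitional epithelia, read 1890 in the siSHISA2_PC-3 array and 1395 in the siCONTROL_PC-3 array on probe set 209016_s_at, a log2 ratio of 0.44. This was 2.92 times the technical yardstick in size, and 1.99% of the bright genes had a ratio as high or higher. A dimmer KRT7 probe set, 1558393_at, read 106.6 in siSHISA2_PC-3 and 90.2 in siCONTROL_PC-3 cells (log2 ratio 0.24), in the same direction. Its remaining probe sets, 1558394_s_at at 25.2 against 29.0 and 214031_s_at at 18.1 against 2.4, were under the floor in both arrays and give no ratio.

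KRT8 was read by a single probe set, 209008_x_at, with a signal of 1990 in siSHISA2_PC-3 and 2283 in siCONTROL_PC-3 cells. Its log2 ratio of -0.20 was 1.32 times the yardstick, and 16.1% of bright genes read as low or lower. The difference between the log2 ratios of KRT7 and KRT8 was 0.64, or 3.0 times the SD of 0.212 seen between bright probe sets of the same gene. That SD does not measure how far different genes lie apart. The log2 ratios of all bright genes themselves had an SD of 0.216. KRT18, the type I partner of KRT8, read 17533 in siSHISA2_PC-3 and 18340 in siCONTROL_PC-3 cells on its only probe set, 201596_x_at. This was 95.6% of the control signal, a log2 ratio of -0.06 and 0.43 times the yardstick. After quantile normalization, or with a loess trend of ratio on signal removed, the KRT18 ratio was -0.12. The ratios of the partners KRT8 and KRT18 differed by -0.13, which is 0.63 times the SD between probe sets of the same gene. In RefSeq these partner genes are neighbours, with no other protein-coding gene between them on chromosome 12, and KRT7 lies in the same keratin cluster with 23 protein-coding genes between it and KRT8.

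Both single probe sets are of the _x_at kind, whose probes can also match other transcripts. The RefSeq gene table of GRCh38.p14 names 52 pseudogenes after KRT8 and 68 after KRT18, against 5 after KRT19 and 0 after KRT7, so the KRT8 and KRT18 values may include transcripts of such copies, which was not tested. KRT19, the smallest keratin and another type I partner, read 1.5 against 0.9 on 201650_at and 4.4 against 1.6 on 228491_at, in siSHISA2_PC-3 and siCONTROL_PC-3 cells. All of these lie far under the floor, where MAS5 signals carry little order, so no KRT19 transcript was detectable with these probe sets and no direction is given.

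Vimentin was among the bright genes. On probe set 201426_s_at VIM read 15025 in the siSHISA2_PC-3 array and 16506 in the siCONTROL_PC-3 array, a log2 ratio of -0.14 and 0.90 times the yardstick. Its other probe set, 1555938_x_at, sat just above the floor at 61.8 against 48.9 and leaned the other way, with a log2 ratio of 0.34. Averaging the pair of probe sets turned the direction of VIM, to 0.10. The ratio of VIM differed from that of KRT8 by 0.06 and from that of KRT18 by -0.07, each under 1 SD between probe sets of a gene.

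PLEC had the lowest ratio of the 10 genes. Probe set 201373_at read 44.7 in the siSHISA2_PC-3 array, under the floor, and 185.7 in the siCONTROL_PC-3 array, so PLEC was at least 3.88-fold lower. In the order of ratios over all measured genes, bright and dim together, 2 of 12931 were as low or lower, PLEC included. The control signal of 185.7 is below the 75th percentile, and with the floor raised to 387.3 PLEC was not measured. The other PLEC probe set, 216971_s_at, read 7.7 against 6.4, under the floor in both arrays, so the difference rests on 1 dim probe set with no second reading. RefSeq lists 45 transcripts for PLEC, which the array does not tell apart.

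DST, the dystonin gene, did not share that difference. Its 10 probe sets fell into 2 bright, 4 dim and 4 unmeasured ones. The bright probe sets read 2049 against 1969 (215016_x_at, log2 ratio 0.06) and 1631 against 1539 (212254_s_at, 0.08) in siSHISA2_PC-3 and siCONTROL_PC-3 cells, both ratios within the yardstick of 0.150. Among the dim ones, 212253_x_at read 160.1 against 160.9 (-0.01) and 232098_at 128.6 against 91.5 (0.49). Probe set 220154_at read 62.1 in siSHISA2_PC-3 cells, with 47.0 under the floor in siCONTROL_PC-3 cells, and was at least 1.30-fold higher. Probe set 215810_x_at, at 94.9 against 20.2, was at least 1.98-fold higher, a bound set by the floor. Its log2 ratio was 0.99 at that bound, 2.23 with the floor at the 25th percentile (11.3) and 2.18 with no floor and a pseudocount of 1. Ratios within DST therefore spanned 0.99 on the log2 scale, with both ends of that range on dim probe sets, and the mean over the 6 measured probe sets was 0.33. DST encodes several dystonin isoforms, including the epithelial one of hemidesmosomes known as BPAG1e. Probe set 204455_at, whose annotated accession NM_001723 is the BPAG1e transcript, read 21.9 in siSHISA2_PC-3 and 31.2 in siCONTROL_PC-3 cells and was not measured. The same holds for 1553191_at, 215814_at and 216918_s_at, with signals of 1.1 to 31.2 among these 4 probe sets.

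**Figure D2:**
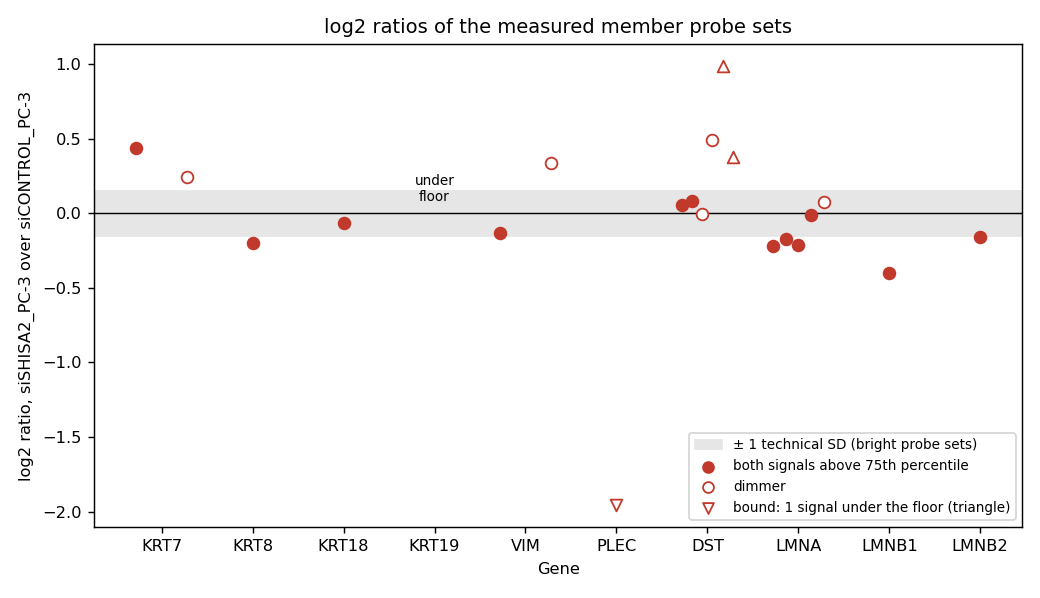
log2 ratio of siSHISA2_PC-3 over siCONTROL_PC-3 for the 20 measured probe sets, by gene, with filled symbols for bright and open symbols for dimmer probe sets, triangles for bounds and a grey band of 1 technical SD (0.150) on each side of 0. KRT7 sits above the band and LMNB1 below it, PLEC is far below at its bound, and the bright DST, KRT18 and VIM symbols lie inside.

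All 3 lamin genes, each with a bright representative, read lower in the siSHISA2_PC-3 array, beside 49.8% of all bright genes. The LMNA ratio was 1.48 times the yardstick in size on the probe set that stood for it. The largest difference was in LMNB1, which encodes lamin B1, a B-type lamin whose loss is a known feature of senescent fibroblasts. Its single probe set, 203276_at, is not of a kind that can share probes and read 2157 in the siSHISA2_PC-3 array and 2854 in the siCONTROL_PC-3 array. The log2 ratio of -0.40 left 75.6% of the control signal and was 2.69 times the yardstick, with 3.86% of bright genes as low or lower. LMNB2, the other B-type lamin, read 1259 against 1406 on 216952_s_at, a log2 ratio of -0.16 or 1.06 times the yardstick. The ratios of LMNB1 and LMNB2 differed by -0.24, or 1.15 times the SD between bright probe sets of a gene.

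LMNA encodes lamins A and C by alternative splicing and had 5 measured probe sets of 6. Its bright probe sets did not all read alike. Probe set 212086_x_at read 3644 against 4249 (log2 ratio -0.22), 1554600_s_at 1427 against 1656 (-0.22) and 203411_s_at 3036 against 3428 (-0.18) in siSHISA2_PC-3 and siCONTROL_PC-3 cells. The fourth, 212089_at, was level at 783.1 against 789.0 (-0.01), and it is the only bright LMNA probe set of a kind not marked as able to share probes. The dim 214213_x_at read 123.5 against 117.5 (0.07), which turned to -0.01 under quantile normalization and with the loess trend removed, and 244225_x_at was under the floor at 8.4 against 14.2. The accession annotated to 203411_s_at, NM_005572, is the lamin C transcript, and the one annotated to 212089_at, M13452, is a lamin A messenger RNA. Probe positions were not used here, so the probe sets were not assigned to isoforms. Averaged over its 5 measured probe sets, LMNA had a log2 ratio of -0.11. Over the 7 measured lamin probe sets, 5 of which belong to LMNA, 6 read lower, beside 47.9% of all measured probe sets with 1 gene, and their median log2 ratio was -0.18.

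LMNB1 is known to be higher in dividing than in senescent cells, and genes of cell division were lower in the same array. Of 10 proliferation genes, all bright, 10 read lower, beside 49.8% of all bright genes, with a median log2 ratio of -0.44 and values from -0.62 to -0.06. The lowest were cyclin A2, CCNA2 (1437 in siSHISA2_PC-3 and 2210 in siCONTROL_PC-3 cells, log2 ratio -0.62), topoisomerase II alpha, TOP2A (-0.60), the mitotic kinase CDK1 (-0.56, with other probe sets up to 0.30) and the proliferation antigen MKI67 (-0.46). The LMNB1 ratio of -0.40 lies within their range. Their part in the LMNB1 result was not tested. The list was chosen with earlier results of these data known, so its count only describes the genes in it.

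The promoters of the B-type lamins are shown because LMNB1 had the largest difference among the bright lamins and LMNB2 is the other gene of that class. The windows run from 250 bases before to 50 after the gene start in RefSeq (GRCh38.p14), chr5:126776373-126776672 on the plus strand for LMNB1 and chr19:2456910-2457209 on the minus strand for LMNB2. They were searched on both strands for a TATA box (TATAAA), the letters of the CCAAT box, a GC box (GGGCGG), an AP-1 site (TGANTCA), an E2F site (TTTNNCGC) and the cell-cycle element CHR (TTTGAA). Capitals mark every match.
LMNB1: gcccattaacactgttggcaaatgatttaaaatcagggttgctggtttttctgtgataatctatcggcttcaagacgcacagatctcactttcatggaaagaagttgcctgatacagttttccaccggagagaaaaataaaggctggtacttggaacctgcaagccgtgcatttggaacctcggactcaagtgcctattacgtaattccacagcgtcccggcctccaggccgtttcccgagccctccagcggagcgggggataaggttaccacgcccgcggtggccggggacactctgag
LMNB2: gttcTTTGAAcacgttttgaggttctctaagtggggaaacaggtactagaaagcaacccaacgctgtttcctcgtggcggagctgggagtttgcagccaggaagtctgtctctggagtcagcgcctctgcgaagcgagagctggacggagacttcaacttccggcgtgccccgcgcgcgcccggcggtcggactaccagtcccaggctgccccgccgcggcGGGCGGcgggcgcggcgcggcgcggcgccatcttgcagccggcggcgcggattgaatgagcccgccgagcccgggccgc
The LMNB1 window held no match to any of the 6 motifs, and the LMNB2 window held 1 GC box and 1 CHR match, which do not overlap. Of all 27305 promoter windows of this length, 44.6% held a GC box, 15.4% a CHR match and 6.90% an E2F match. The windows also differed in base composition, with 38 CpG dinucleotides and 67.7% G or C in LMNB2 and 16 and 52.0% in LMNB1, against medians of 14 and 58.3% over all windows. A match describes letters in a window and is not a bound site. Of the 10 genes, 6 had a window in the table used here. Each gene had 1 window, at its gene start. LMNB1 has 7 RefSeq transcripts, and any other start among them was not searched. The absence of a match therefore holds for the printed LMNB1 window only. The window of the other lamin, LMNA, lies at the outermost of 28 RefSeq transcripts and is not printed. The LMNA window was searched as well. It held 1 CCAAT box, 1 GC box and 1 E2F match, where 35.7% of all windows held a CCAAT box.

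Genes of the proteins that bind lamins were mixed, with more on the lower side. Of 13 such genes 12 were measured and 11 were bright. Of the measured ones 9 read lower, beside 47.8% of all measured and 49.8% of all bright genes, and the median log2 ratio was -0.14. Some of the lower genes were near 0 or had a probe set on the higher side. These were SUN1 (-0.03, up to 0.45), SYNE1 (-0.01, up to 0.42), NUP153 (-0.24, up to 0.54) and TOR1AIP1 (-0.11, up to 0.06), all named after their values were seen. TMPO, which encodes the lamina-associated polypeptide LAP2, read 2924 in siSHISA2_PC-3 and 4608 in siCONTROL_PC-3 cells (log2 ratio -0.66), and its 4 measured probe sets ran from -0.97 to -0.08. LBR, the lamin B receptor of the inner nuclear membrane, read 2941 against 4547 (-0.63) on its only measured probe set. SYNE2, the nesprin-2 gene, read 619.0 against 839.0 (-0.44), with a probe set at 0.23 that went the other way. On the higher side, LEMD2, a LEM-domain protein of the inner membrane, read 193.8 against 76.7 (1.34, 2.53-fold) on 1 dim probe set. The only SYNE3 probe set was under the floor.

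Enzymes that process the tails of prelamin A and B-type lamins showed no common direction. Of 5 genes 3 read lower, beside 47.8% of all measured genes, with a median of -0.07. FNTA, the alpha subunit of farnesyltransferase, read 12183 in siSHISA2_PC-3 and 9694 in siCONTROL_PC-3 cells (log2 ratio 0.33, with a second probe set at -0.03). ICMT, which methylates the farnesylated cysteine, read -0.26, the beta subunit FNTB -0.17 at dim signals, and the protease RCE1 0.09, as log2 ratios.

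The remaining plakins showed no common direction. Of 5 genes 4 were measured, with 2 lower, beside 47.8% of all measured genes, and a median of -0.16. EVPL, envoplakin of the cornified envelope, read 52.4 in siSHISA2_PC-3 and 105.1 in siCONTROL_PC-3 cells, a 2.01-fold difference with the lower signal barely above the floor. Its partner periplakin, PPL, was bright at 595.3 against 764.7 (log2 ratio -0.36). MACF1, the nearest relative of DST, read 6102 against 5647 (0.11, with probe sets from -0.16 to 0.40), and desmoplakin, DSP, the plakin that anchors keratin at desmosomes, 8145 against 7884 (0.05). EPPK1 was under the floor on all 5 probe sets.

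Of the hemidesmosome genes whose proteins bind plectin or dystonin, or the matrix beneath them, 4 of 7 were measured. Of these 2 read lower, beside 47.8% of all measured genes, with a median of 0.05. LAMB3, a chain of laminin-332, read 2988 in siSHISA2_PC-3 and 1713 in siCONTROL_PC-3 cells (log2 ratio 0.80). The ratios of the integrin subunits were small and differed in sign. ITGA6 was bright at 1893 against 2173 (-0.20, with a probe set at -0.71). ITGB4 was dim at 120.7 against 107.5 (0.17, with a probe set at 0.53). The tetraspanin CD151 had a log2 ratio of -0.08. The other 3 genes of this list had no probe set annotated to them alone and were not analysed here.

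Few other filament genes gave a usable signal. Of 39 further keratins 32 had a probe set annotated to them alone and 7 were measured, 5 of them as bounds just across the floor, and the only bright ones were KRT10 (5926 in siSHISA2_PC-3 and 5630 in siCONTROL_PC-3 cells, log2 ratio 0.07) and KRT80 (1573 against 1541, 0.03), both named after their values were seen. KRT9 was at least 1.34-fold lower, and KRT5, KRT14 and KRT79 at least 1.12-fold, 1.11-fold and 1.10-fold higher, with signals of at most 64.4. Of 11 other cytoplasmic filament genes 4 were measured and none was bright. Desmin, DES, was at least 1.96-fold higher at 93.9 in siSHISA2_PC-3 cells, the lens filament gene BFSP1 had a log2 ratio of -0.49, peripherin, PRPH, was at least 1.05-fold higher and synemin, SYNM, level at -0.01. Of the 6 transcription factors of epithelial to mesenchymal transition, which are known to govern VIM and keratin genes, 3 were measured. All 3 read lower by little, where 47.8% of all measured genes read lower. They were ZEB2 (-0.28, with a probe set at 0.45), ZEB1 (-0.14, with probe sets from -0.61 to 0.14) and SNAI1 (-0.03, at 59.1 against 60.5).

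**Figure D3:**
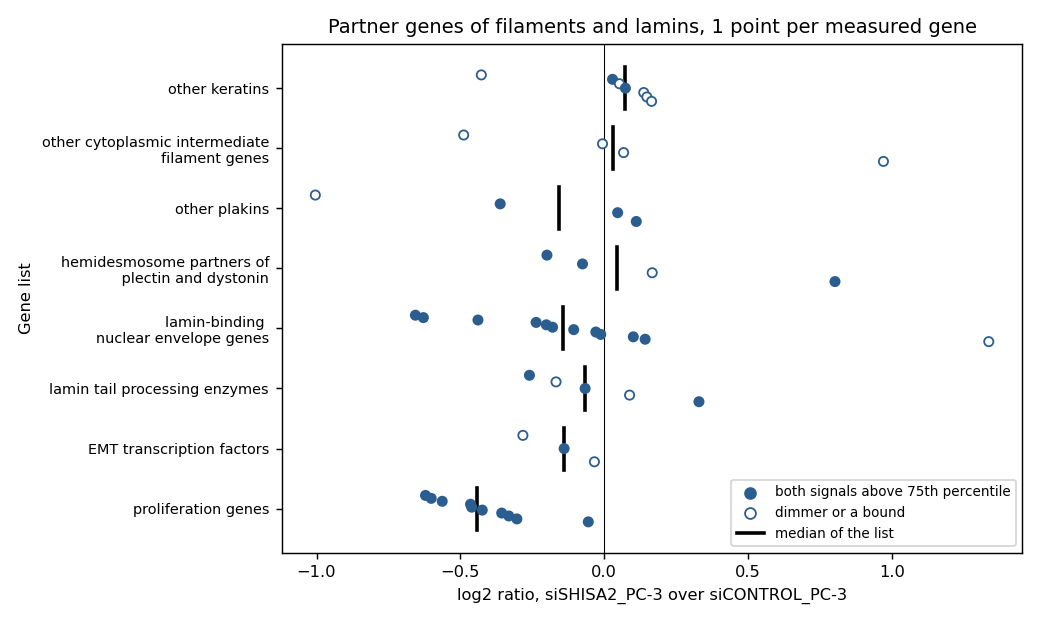
log2 ratio of siSHISA2_PC-3 over siCONTROL_PC-3 for each measured gene of 8 partner lists, 1 point per gene, filled where both signals were above 387.3, with a bar at the list's median. The proliferation genes all lie below 0 around -0.44, the lamin-binding genes lie mostly below 0 with LEMD2 at 1.34, the 3 EMT transcription factors lie just below 0, and the other 5 lists have genes on both sides of 0.

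Besides the bright keratin probe sets and the bright desmoplakin, the epithelial markers listed for these cells were dim. Of 6 epithelial markers 3 were measured and none was bright, led by CLDN4 (log2 ratio -0.38, at 48.7 against 63.2), EPCAM (313.1 against 353.6, -0.18) and ESRP1 (at least 1.04-fold higher). E-cadherin, CDH1, was under the floor on both probe sets, at most 14.7 in siSHISA2_PC-3 and 21.3 in siCONTROL_PC-3 cells, and so was CLDN7. Of the luminal markers KLK2 (at least 1.49-fold higher) and KLK3 (251.0 against 242.3, 0.05) were measured, HOXB13 and TMPRSS2 were under the floor, and of the basal markers KRT5 and KRT14 crossed the floor while KRT15 and NGFR did not. Of the measured markers of other cell types only COL1A1 was bright, at 577.0 in siSHISA2_PC-3 and 787.2 in siCONTROL_PC-3 cells. The sums below add probe sets of different affinity and some signals under the floor, and describe only how much signal each list held. The summed signal of the measured ones was 221.9 against 139.7 for 2 leukocyte markers (CD79A, log2 ratio 0.59, and CD3E, at least 1.20-fold higher), with PTPRC, LYZ and CD14 under the floor. It was 383.2 against 260.5 for 2 endothelial markers (CDH5, 0.75, and PECAM1, 0.22, with a probe set at -0.56), with VWF, KDR and TEK under the floor. It was 869.4 against 1046 for 3 fibroblast and smooth muscle markers (COL1A1, -0.45 with a probe set at 0.92, MYH11, 0.26, and ACTA2, 0.15), with COL1A2, COL3A1, PDGFRB and LUM under the floor. It was 392.8 against 540.6 for 3 neuroendocrine markers (SCG2, at least 2.26-fold lower, ENO2, -0.51, and NCAM1, at least 1.27-fold higher), with CHGA and SYP under the floor. VIM is also a gene of leukocytes, endothelium and fibroblasts, while both samples are labelled as PC-3 cells only. These values stand beside VIM signals of 15025 in siSHISA2_PC-3 and 16506 in siCONTROL_PC-3 cells and a VIM ratio of -0.14. Their part in that ratio was not tested.

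**Figure D4:**
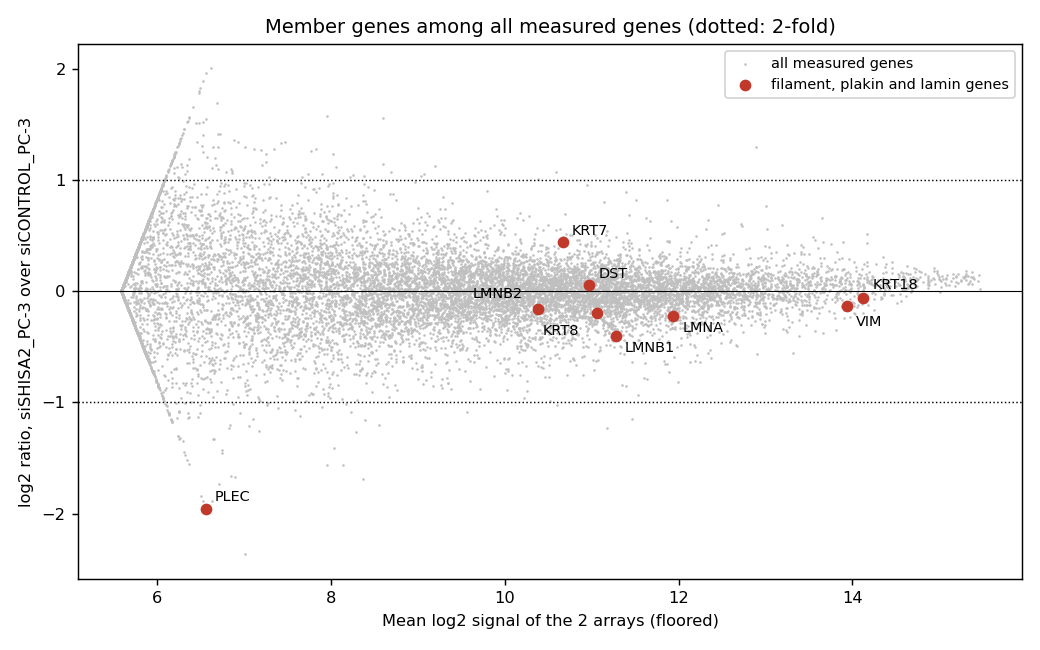
log2 ratio of siSHISA2_PC-3 over siCONTROL_PC-3 against mean log2 signal, grey for the 12931 measured genes and red for the 9 measured genes of the filament, plakin and lamin set, with dotted lines at 2-fold. KRT7 and LMNB1 lie toward the upper and lower edges of the bright cloud, KRT18 and VIM are at its bright end just below 0, and PLEC is at the dim end, far below the 2-fold line.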

How the data were processed

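RNA of PC-3 cells was hybridised to 2 arrays, 1 per vector, grouped by sample title. The deposited intensities are linear probe-set signals that the authors made with MAS5, per the submitters' processing notes (version not given in the sources used here), with a 2% trimmed mean of 500.1 in both arrays. The 62 control probe sets were left out. Of the array's 54675 probe sets, 41091 have 1 gene in the annotation used here, 1801 several, and 11777 are unlisted. Control probe sets were not counted as having 1 gene, so these counts fall short of the whole array. Signals under 47.9 were raised to it, and ratios against a raised signal are bounds. With 1 array per group no test was possible. The 10 genes and 15 partner lists (133 genes) were chosen with earlier results of these data known. Named are SHISA2, the 10 genes, and up to 4 measured genes per list with the largest ratio in size. Further genes given as under the floor, and those marked so in the text, were picked once their values had been seen. Over 2 arrays likeness of pattern cannot be ranked, so no gene is named for it. The alternatives were 3 scalings, floors at 11.3 (25th percentile) and 387.3 (75th), log2(signal + 1) without floor, gene means over probe sets, omission of the _x_at and _s_at kinds, and cutoffs of 1.5-fold and 3-fold. The procedure was tested on simulated data, with known changes of more than 2-fold put only into probe sets well above the 75th percentile. Recovery of changes in dim signals, of bounds and of ratios under 2-fold was not tested there. Python 3.11.15, pandas 2.3.3 and statsmodels 0.14.6 (loess span 0.3) were used, with names and promoters from RefSeq GRCh38.p14.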

Additional observations from a re-analysis of the deposited data

How the results depend on the processing

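Under the 3 other scalings 7 of 9 genes stayed below 0, with a median over the 9 genes from -0.18 to -0.17. The count of genes at least 2-fold apart was 1 in all alternatives except the floor at the 75th percentile, where it was 0 since PLEC is not measured there. Without _x_at and _s_at probe sets 5 genes were measured and 3 of them were below 0, with a median of -0.01, because KRT8, KRT18 and LMNB2 have no other probe set and dimmer or single ones stand for KRT7 (0.24), DST (0.49) and LMNA (-0.01), while VIM drops out. With probe sets averaged, 6 of 9 genes were below 0, with a median of -0.11. Of 179 single values under the alternatives, 172 moved by less than 0.150 and 4 changed sign: VIM with probe sets averaged (0.10), the LMNA probe set 214213_x_at under quantile normalization and loess (-0.01 in each), and 212089_at after loess (0.0005). The LMNB1 ratio lay between -0.43 and -0.39. No paired analysis was possible because each group has 1 array. The dim DST probe set 215810_x_at ranged from 0.86 to 2.23. The PLEC, EVPL and LEMD2 differences each rest on 1 dim probe set, and KRT19 could not be measured.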
